A study of Mus musculus with 17 samples.

Results

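Chromosome 7 held 6495 of the 147420 accessible regions of this series, the smallest number of regions per megabase of any autosome, and in female mice its regions were more often lost than gained 1 h after cocaine. The regions were built by joining overlapping peaks (merging by 1 bp or more) from all 17 libraries and keeping those called in 2 or more libraries of 1 group. Chromosome 7 itself was selected on measured values: among the autosomes it had the lowest share of gained regions in both female stages. Comparisons of cocaine with control are therefore given as descriptions, with no test.

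The series profiled open chromatin by ATAC-seq, in which a transposase cuts and tags accessible DNA, in NeuN-positive neuronal nuclei sorted from the nucleus accumbens (NAc) of C57BL/6 mice (the C57BL/6J substrain in the study's methods) aged 52 to 54 days. Its 6 groups were females in diestrus, females in proestrus and males, each either given 10 mg/kg cocaine by intraperitoneal injection and collected 1 h later or collected as controls that received no cocaine. The study's methods call these controls the baseline and name no vehicle injection for them, so injection and cocaine cannot be told apart. Every group had 3 libraries except male cocaine, which had 2, and each library was a pool of 3 animals, so differences between single animals cannot be seen. Diestrus cocaine library 2 carries no stage entry of its own and was placed by its title.

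A peak is a stretch of DNA that the peak caller found cut more often than its local background. Open chromatin in neurons marks promoters, which start transcription, and enhancers, many of which lie inside long synaptic genes. Chromosome 7 of the mouse carries several such genes, including Dlg2, Shank1, Shank2, Grm5 and a cluster of GABA-A receptor genes, together with the imprinted Ube3a and Peg3 domains. It also carries large arrays of olfactory and vomeronasal receptor genes, which are transcribed in sensory neurons of the nose and are silent in most other cells. AP-1, a dimer of Fos and Jun proteins that is induced by neuronal activity, binds the sequence TGACTCA.

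The libraries held 75458 to 157005 peaks, of which 3155 to 8138 lay on chromosome 7. The steps between the deposited fold enrichments placed the background pileup behind a peak at 6.26 to 9.55. The total reads per library are not in the deposited peak files used here, and a region with no peak was not detected at that library's depth, which does not show it closed. The male cocaine libraries held the fewest peaks of any group, 75458 and 87707. Diestrus cocaine library 1 stood apart from its group, with 157005 peaks against 99789 and 111834, and the male control library 2 had the fewest chromosome 7 peaks of its group, 4462 against 5886 and 6713. The total gained and lost counts and the control-only counts are also given without single libraries, whereas counts by GC class, stretch, gene list and promoter and the overlaps use all libraries. Of 10 neuronal and medium spiny neuron marker promoters, 9 were called in all 17 libraries and Pdyn, the prodynorphin gene, in 16. Of 15 astrocyte, oligodendrocyte, microglia and endothelial marker promoters, 8 were at 0 in every library, among them Mag and Tyrobp on chromosome 7. Mbp of oligodendrocytes and Aif1 of microglia were called in all 17 libraries, and Gfap of astrocytes in 16. Of the other astrocyte markers, Aqp4 was called in all 3 diestrus cocaine libraries, 1 proestrus cocaine library and no control. Aldh1l1 was called in the 3 male controls alone. Between 3 and 6 of the 15 were called per library, with 4 to 6 in female and 3 in male cocaine libraries and 4 to 5 in controls, and their part in the results was not tested.

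Shown first are 4 regions called in every control of the 3 strata (diestrus, proestrus and male) and in at most 1 cocaine library, since they carry the direction seen over the chromosome in females. Each sequence is the 201 bases around the summit, the base with the most cuts, on the plus strand of the mm10 (GRCm38) reference, and capitals mark CG dinucleotides, the site of most DNA methylation.

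Prkcb intron, chr7:122556880-122557080: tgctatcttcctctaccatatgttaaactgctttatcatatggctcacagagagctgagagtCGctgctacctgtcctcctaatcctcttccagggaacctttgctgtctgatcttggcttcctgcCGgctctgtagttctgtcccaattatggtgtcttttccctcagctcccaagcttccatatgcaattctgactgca
Drd4 promoter, chr7:141292077-141292277: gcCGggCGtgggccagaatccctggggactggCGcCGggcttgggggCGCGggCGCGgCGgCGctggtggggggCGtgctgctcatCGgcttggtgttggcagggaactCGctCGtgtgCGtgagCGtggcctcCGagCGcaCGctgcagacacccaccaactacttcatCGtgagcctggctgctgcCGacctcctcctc
Shank2 intron, chr7:144250875-144251075: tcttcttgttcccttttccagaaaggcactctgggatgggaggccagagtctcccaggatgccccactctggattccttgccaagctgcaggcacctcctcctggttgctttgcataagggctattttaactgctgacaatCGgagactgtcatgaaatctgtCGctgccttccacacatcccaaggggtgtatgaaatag
Between genes near Tjp1, chr7:65235742-65235942: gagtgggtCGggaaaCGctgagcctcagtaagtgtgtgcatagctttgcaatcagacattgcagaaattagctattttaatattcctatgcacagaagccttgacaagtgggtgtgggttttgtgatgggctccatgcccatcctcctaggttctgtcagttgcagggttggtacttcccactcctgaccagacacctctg

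The Drd4 summit held 21 CG dinucleotides and 71.6% GC, against 2 CG dinucleotides in each of the Prkcb, Shank2 and Tjp1 sequences. For contrast, one region with an AP-1 motif is shown from the few that were gained in each stratum, with the motif (TGACTCA or its reverse complement TGAGTCA) in capitals.

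Near Asb7, gained in diestrus, chr7:66593755-66593955: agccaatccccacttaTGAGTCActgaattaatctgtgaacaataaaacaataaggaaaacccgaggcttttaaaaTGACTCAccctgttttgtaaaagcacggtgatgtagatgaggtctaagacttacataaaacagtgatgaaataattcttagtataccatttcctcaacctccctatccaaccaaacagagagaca
Agbl1 intron, gained in proestrus, chr7:76408194-76408394: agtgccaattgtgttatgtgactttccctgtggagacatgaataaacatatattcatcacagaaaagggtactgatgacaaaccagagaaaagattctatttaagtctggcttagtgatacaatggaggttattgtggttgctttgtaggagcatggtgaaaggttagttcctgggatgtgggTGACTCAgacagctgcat
Tcerg1l intron, gained in males, chr7:138315265-138315465: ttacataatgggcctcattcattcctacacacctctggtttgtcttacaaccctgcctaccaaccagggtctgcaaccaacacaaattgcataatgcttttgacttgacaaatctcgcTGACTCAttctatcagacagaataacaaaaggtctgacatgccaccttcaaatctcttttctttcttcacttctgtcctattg

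The Asb7 region carried the motif 2 times, once on each strand. Over all kept regions of chromosome 7, 590 of 6495 (9.08%) held the AP-1 motif within 100 bp of the summit, and over the other autosomes 10.1% did. The motif was present in 1 of the 5 regions gained in diestrus, 5 of the 25 gained in proestrus and 4 of the 36 gained in males. It was present in 3.85% of those lost in diestrus, 6.08% of those lost in proestrus and 9.26% of those lost in males. On the other autosomes, 21.7%, 17.2% and 4.03% of the regions gained in diestrus, proestrus and males held the motif. Of the regions lost there, 3.36%, 3.98% and 10.4% did. A match describes the letters of the window and is not a measure of binding.

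To describe how accessibility was spread along the chromosome, regions were counted in its 146 windows of 1 Mb, of which the first 3 are unknown bases in the reference. Chromosome 7 carried 44.7 kept regions per Mb, the lowest of 19 autosomes, where chromosome 17 came next with 50.7 and chromosome 11 was highest with 73.0. The median window with sequence held 39 regions, with quartiles of 12.5 and 69.5, and the median over the other autosomes was 55. Of the 143 windows with sequence, 16 (11.2%) held no kept region, against 19 of 2273 (0.836%) on the other autosomes, so 16 of the 35 empty autosomal windows lay on chromosome 7. Only 1 of the 16 held any peak in any library, and that was a single peak. A second set of 15 windows held 1 to 10 regions, and 15 windows held more than 100.

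Most empty windows held arrays of related genes, above all receptors for odours and pheromones. The 16 windows formed 9 runs and contained the start of 300 protein-coding genes, of which 99 were vomeronasal and 94 olfactory receptor genes. The longest run, from 20 to 24 Mb, held 101 genes, of which 64 were vomeronasal receptors and 35 carried only predicted-gene names. The run from 8 to 10 Mb held 13 vomeronasal receptor genes and no other protein-coding gene, and that from 85 to 87 Mb held 14 vomeronasal and 15 olfactory receptor genes beside Folh1, a glutamate carboxypeptidase. The run from 103 to 105 Mb held 104 genes, of which 79 were olfactory receptors, with 5 beta-globin genes (Hbb) and 10 Trim genes among the rest. The run from 32 to 34 Mb held 20 secretoglobin genes, which encode small secreted proteins of the salivary and lacrimal glands. The window from 26 to 27 Mb held 8 Cyp2 genes, which encode drug-metabolising enzymes, the one from 11 to 12 Mb held 7 Zscan4 genes of the early embryo, and the one from 14 to 15 Mb held Sult2a and Obox genes. The window from 53 to 54 Mb contained no protein-coding gene.

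Receptor families were almost without called regions throughout the chromosome. None of the 154 vomeronasal receptor genes had a kept region within 1 kb of a start site, and of 244 olfactory receptor genes only Olfr575 and Olfr577 did. The count was 1 of 26 for the kallikreins (Klk10), 0 of 32 for the Siglec and CEA family, 1 of 13 for the Nlrp genes (Nlrp6) and 2 of 15 for the Cyp2 genes (Cyp2t4 and Cyp2r1). By contrast 86 of 92 zinc finger genes named Zfp had one, in 76 cases in all 17 libraries, and 970 of the 1447 protein-coding genes outside these families did. Of the 24 windows with 5 or more receptor genes, 11 were empty and the highest held 48 regions, whereas the other 119 windows had a median of 45.

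**Figure D1:**
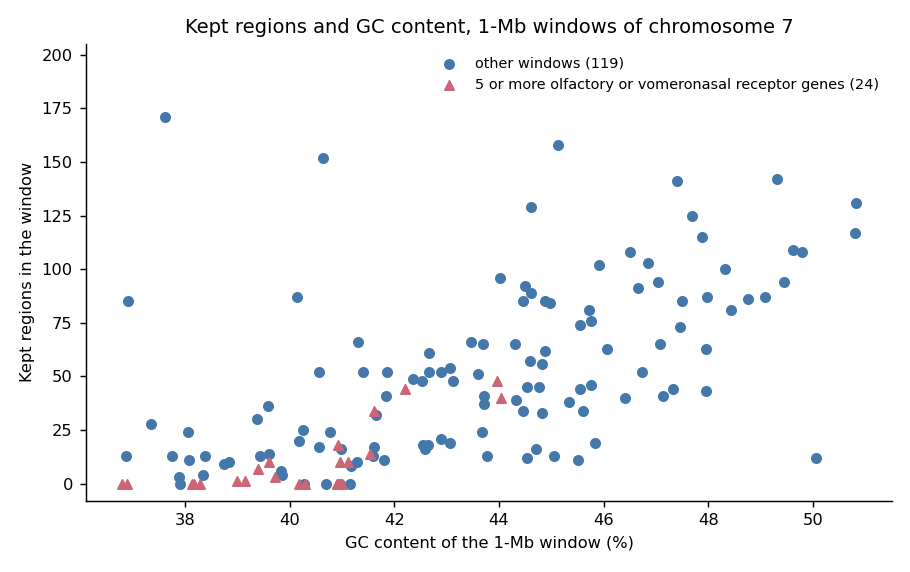
Kept regions (vertical axis, count) against GC content (horizontal axis, %) for the 143 windows of 1 Mb of chromosome 7 that hold sequence. Triangles are the 24 windows with 5 or more olfactory or vomeronasal receptor genes, which hold at most 48 regions, and the circles are the other 119 windows, in which 2 of the 3 densest windows (171 and 152 regions) have a GC content of 37.6% and 40.6%.

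The 3 densest windows lay over genes of the synapse. The window from 91 to 92 Mb held 171 regions, and all 171 lay inside Dlg2, which encodes the postsynaptic scaffold PSD-93. The next megabase to the right, from 92 to 93 Mb, held 152, of which 106 lay in Dlg2 and 14 in Rab30, a Golgi GTPase. The window from 122 to 123 Mb held 158, of which 91 lay in Prkcb, a calcium-dependent protein kinase C, and 25 in Cacng3, an auxiliary subunit of AMPA receptors. These 3 windows had a GC content of 37.6%, 40.6% and 45.1%, while the empty windows ranged from 36.8% to 41.2% and the 20 densest had a median of 47.2%. Together the 20 densest windows held 36.8% of the regions of the chromosome.

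By gene, Dlg2 (chr7:90476672-92449247) held 293 kept regions, of which 47 were called in all 17 libraries. Tenm4, a teneurin adhesion molecule, held 118, and Grm5, the metabotropic glutamate receptor 5, held 92. Nav2, a neuronal microtubule-binding protein, held 92, Prkcb held 91 and Ntrk3, the neurotrophin-3 receptor, held 76. Per length these long genes were alike, with 13.1 regions per 100 kb in Nav2, 13.5 in Ntrk3, 14.9 in Dlg2, 15.9 in Tenm4 and 16.7 in Grm5, while Prkcb reached 26.3. The highest values among genes with 10 or more regions were in shorter genes, with 55.0 per 100 kb in Tspan4, 40.1 in Fbxl19, then Grik5, a kainate receptor subunit (25 regions in 62.5 kb), and 39.9 in Ube3a, an imprinted ubiquitin ligase. The annotated span of Fgfr2 reaches over 2961 kb and 29 other protein-coding genes, so its 194 regions, of which 68 lay in no other gene, are not a count for the receptor gene itself.

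Regions of chromosome 7 lay at promoters more often than those elsewhere. Of the 6495 regions, 1383 (21.3%) were within 1 kb of a protein-coding start site, 3518 (54.2%) in gene bodies and 1594 (24.5%) between genes, against 13.5%, 53.8% and 32.7% on the other autosomes. The median width was 716 bp in both sets, and the median GC content was 47.7% against 44.3%. Breadth was alike, with 1762 regions (27.1%) called in all 17 libraries against 24.8% elsewhere. Of the promoter regions 62.0% were called in all 17 libraries, and of the gene-body regions 16.5% were. The 5 with the highest median fold enrichment among the 1762 were all promoters, those of Cnot3, Prkd2 beside Dact3, Tomm40 beside Nectin2, Cic and Uvrag. The keeping rule itself sets a low edge: 1994 regions were kept with 2 libraries in a group as their best, with a median highest fold enrichment over background of 3.13, and 6021 merged regions with at most 1 library in every group were left out, with a median of 2.68.

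Promoter calls differed among the gene lists. Of the 1447 protein-coding genes outside the families counted earlier, which include the listed genes, 823 had a promoter region in all 17 libraries. The lists were made with earlier results of these data known, and 8 genes stand on 2 of them. All 22 genes on the list of kinases, phosphatases and pumps had a promoter region in all 17 libraries, including Mapk3, which encodes ERK1, and Calm3, a calmodulin gene. So did 23 of 27 synaptic scaffold, adhesion and vesicle genes, 17 of 26 synaptic receptors and channels, and 22 of 29 transcription factors and activity-induced genes. Among the last was Fosb, which encodes the AP-1 member whose stable form accumulates with repeated drug exposure. Of 19 peptide, hormone and monoamine genes only 2 (Ucp2 and Nucb2) were called in every library, 3 varied and 14 had no promoter region, among them Th, the rate-limiting enzyme of dopamine synthesis, Calca and Ins2. Of 31 imprinted genes 15 were called in every library, including Peg3, Snrpn, Ube3a and the Kcnq1ot1 start site inside Kcnq1. The 13 imprinted genes with no promoter region included H19, Igf2, Ndn and Phlda2.

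To ask whether the weight of chromosome 7 differed between groups, the percentage of each library's peaks that lay on it was compared. In diestrus controls it was 4.81%, 5.66% and 5.36%, and in proestrus controls 4.97%, 5.23% and 5.17%. In male controls it was 4.48%, 3.31% and 3.96%, so all 3 male controls were below all 6 female controls. The mean was 3.92% ± 0.582 (SD, n = 3) in male and 5.20% ± 0.300 (SD, n = 6) in female controls. The two-sided exact permutation test over these libraries gave p = 0.0238, the smallest p it can give with 3 against 6 libraries, and p = 0.0952 after Benjamini-Hochberg adjustment over the 4 comparisons made. That is above 0.05, but these library numbers allow no smaller adjusted p, so no comparison could have passed. These libraries are also the controls of the cocaine contrast on which the chromosome was selected. The separation of male from female controls and the p-values of this paragraph are therefore not independent of that choice. Diestrus and proestrus controls differed by 0.152 percentage points (exact permutation p = 0.6, adjusted p = 0.7), where 3 against 3 libraries cannot go below 0.1. Without diestrus control library 2 this difference was -0.0408. P-values here measure the spread between pools of animals.

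After cocaine the share was 5.18%, 3.76% and 3.16% in diestrus, and 3.25%, 4.49% and 3.18% in proestrus. In male cocaine libraries it was 4.43% and 4.42%. All 3 proestrus cocaine libraries were below all proestrus controls, as were 2 of 3 in diestrus, library 1 lying among the controls. The 2 male cocaine libraries lay within the range of the male controls. Relative to controls the mean share changed by -23.5% in diestrus and -29.0% in proestrus, the lowest values of 19 autosomes in both. Chromosome 17 came next in both, with -13.6% and -17.3%. In males the mean share of chromosome 7 changed by 13.1%, the highest of 19. Without diestrus cocaine library 3 the diestrus change was -15.2%, and it stayed the lowest of 19 without any one diestrus library, as did that of proestrus. Without male control library 2 the male change was 4.99% and no longer the highest, and without male control library 1 it was 21.8%. The cocaine libraries are among those on which the chromosome was selected, so the p-values that follow are not independent of that choice. Male and female cocaine libraries differed by 0.591 percentage points (exact permutation p = 0.5, adjusted p = 0.7), where 2 against 6 libraries cannot go below 0.0714. Diestrus and proestrus cocaine libraries differed by 0.396 (exact permutation p = 0.7, adjusted p = 0.7), and without diestrus cocaine library 1 by -0.178.

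**Figure D2:**
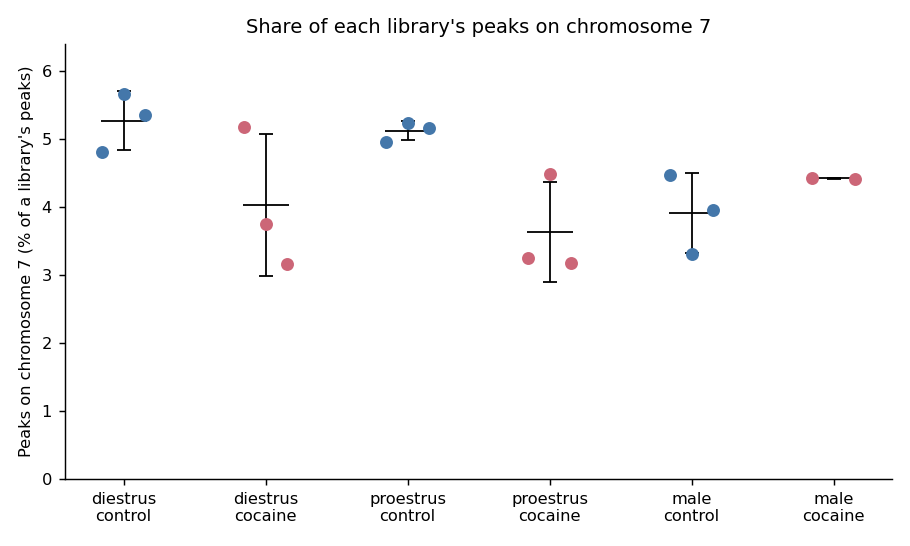
Percentage of each library's peaks that lie on chromosome 7 (vertical axis) in the 6 groups (horizontal axis). Points are libraries, blue for control and red for cocaine, and the black bar and whiskers are the mean ± SD. The 3 male controls (3.31% to 4.48%) lie below the 6 female controls (4.81% to 5.66%), which is not independent of the choice of the chromosome on these libraries.

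The female groups, and the male and female controls, differed most where the surrounding sequence is poor in GC. Kept autosomal regions were divided into 3 classes of about equal size by the GC content of the 1 Mb around them, at 41.8% and 44.9%, and the share of a library's peaks in each class that lay on chromosome 7 was taken. In the low class it was 3.01% to 3.87% in diestrus controls and 2.84% to 3.27% in proestrus controls, but 1.34% to 2.12% in male controls. After cocaine it was 3.17%, 1.66% and 1.19% in diestrus, 1.42%, 2.39% and 1.41% in proestrus. The male cocaine libraries had 1.85% and 1.72%. The male controls overlapped 3 of the 6 female cocaine libraries, and 1 more was lower than all of them. In the high class the groups lay closer together, from 5.84% to 7.42% over all 17 libraries.

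A region was called gained when every cocaine library and no control library of a stratum called it, and lost when the reverse held. In diestrus, 5 regions of chromosome 7 (0.0770%) were gained and 130 (2.00%) were lost, where 1.16% of all kept regions were gained and 1.26% lost. In proestrus 25 (0.385%) were gained and 263 (4.05%) lost, against 2.45% and 1.64% of all. In males 36 (0.554%) were gained and 594 (9.15%) lost, against 1.66% and 16.8% of all. Chromosome 7 had the lowest gained and the highest lost percentage of 19 autosomes in both female stages. In males it had the lowest gained and also the lowest lost percentage, with the next lowest lost percentage, 13.3%, on chromosome 17.

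The counts moved with single libraries, since a region must be called in every library of a group. In diestrus the lost count was 845 without cocaine library 1, 416 without control library 1, 228 without control library 2 and 211 without control library 3. The diestrus gained count was 9 without cocaine library 1, 12 without cocaine library 2, 32 without cocaine library 3, 14 without control library 2 and 16 without control library 3. In proestrus the lost count was 402 to 515 without any one control and 415 without cocaine library 2, and the gained count was 39 and 48 without control libraries 2 and 3 and 44, 49 and 62 without cocaine libraries 1, 2 and 4. In males the lost count was 1226 without control library 2, and the gained count was 58 without control library 1 and 101 without cocaine library 2. Losses outnumbered gains on chromosome 7 in every one of these settings, with a gained share of 1.05% to 18.9%. With the same number of strongest peaks (75458) taken from each library, the female counts were 6 gained and 67 lost in diestrus and 16 and 146 in proestrus. The male counts became 164 gained and 147 lost, so in males the excess of losses was not seen at equal peak numbers, while on the other autosomes 3671 were gained and 8558 lost in males at equal numbers.

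In females the difference in gains between chromosome 7 and the other autosomes was widest in GC-poor surroundings. In the low class, 0 of 1121 chromosome 7 regions were gained in diestrus, which allows up to 0.268%, and 34 were lost, where 1066 were gained and 356 lost among 47286 regions of the other autosomes. In proestrus the low class held 6 gained and 20 lost on chromosome 7, against 2282 gained and 111 lost elsewhere. In the high class losses prevailed on both, with 4 gained and 207 lost in proestrus on chromosome 7 and 200 gained and 1572 lost elsewhere. In males the low class of chromosome 7 held 19 gained and 109 lost, against 2131 and 8976 elsewhere.

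**Figure D3:**
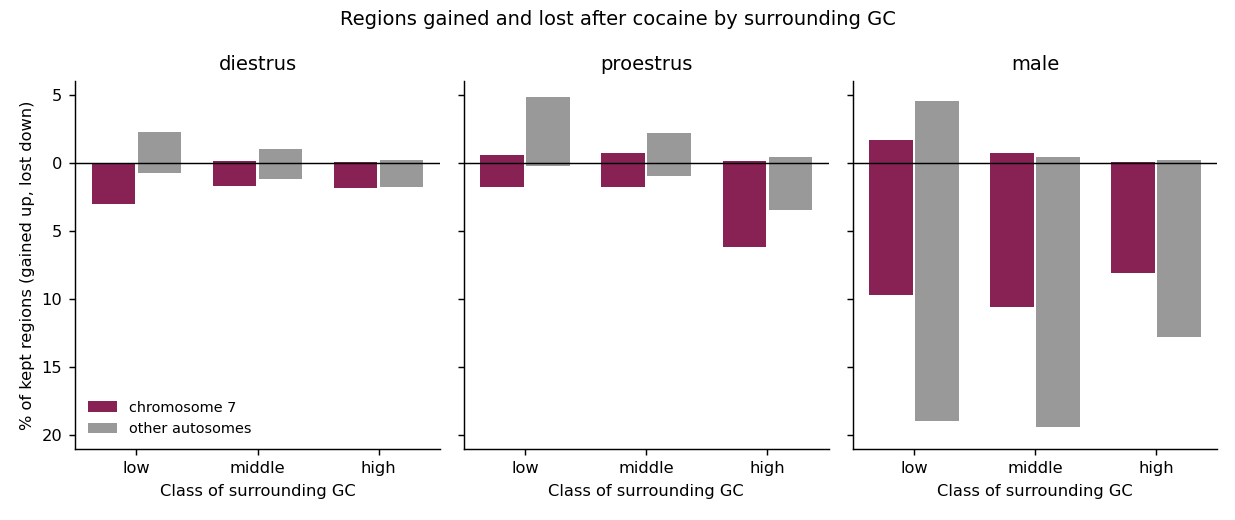
Percentage of kept regions gained (bars up) and lost (bars down) after cocaine in diestrus, proestrus and males, by class of the GC content of the surrounding 1 Mb (horizontal axis), for chromosome 7 (purple) and the other autosomes (grey). In the low class the grey bars reach 2.25% gained in diestrus and 4.83% in proestrus, where chromosome 7 has 0% and 0.535%.

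The losses did not follow the same stretches in each stratum. For description the chromosome was cut at 48 and 105 Mb, the second being the end of the last empty run, both chosen after the counts were seen. In proestrus 134 of 1478 regions (9.07%) were lost in the proximal stretch, 2.00% in the middle and 3.26% in the distal stretch. In males it was the reverse, with 52 of 1478 (3.52%) lost in the proximal stretch, 301 of 2747 in the middle and 10.6% in the distal stretch. In diestrus the percentages were 1.29%, 2.48% and 1.89%. Over all kept regions of the series 1.26% were lost in diestrus, 1.64% in proestrus and 16.8% in males, so every male stretch lay below the series-wide male value. The median GC content of the 1 Mb around the regions was 47.7%, 43.9% and 45.4% in the 3 stretches, and its part in these percentages was not tested. The window from 19 to 20 Mb, which holds Eml2, Ppp1r37 and Gipr, had 17 of its 117 regions lost in proestrus, 3 in diestrus and 2 in males. The window from 49 to 50 Mb, most of it Nav2, had 25 of its 103 regions lost in males, 5 in diestrus and 3 in proestrus.

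Scaled to 100000 called regions of each library, to remove differences in total peak number, 109 of 117 windows with 10 or more regions (93.2%) had fewer calls after cocaine in diestrus, where 38.1% of all windows of the genome did. In proestrus 98 of 117 (83.8%) did, against 34.3% of all, and in males 20 of 117 (17.1%) did, against 50.8%. The median change over the 117 windows was -20.4% in diestrus, -19.5% in proestrus and 19.03% in males. The lower share of chromosome 7 in females was therefore spread along its length, and in males most windows went the other way.

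**Figure D4:**
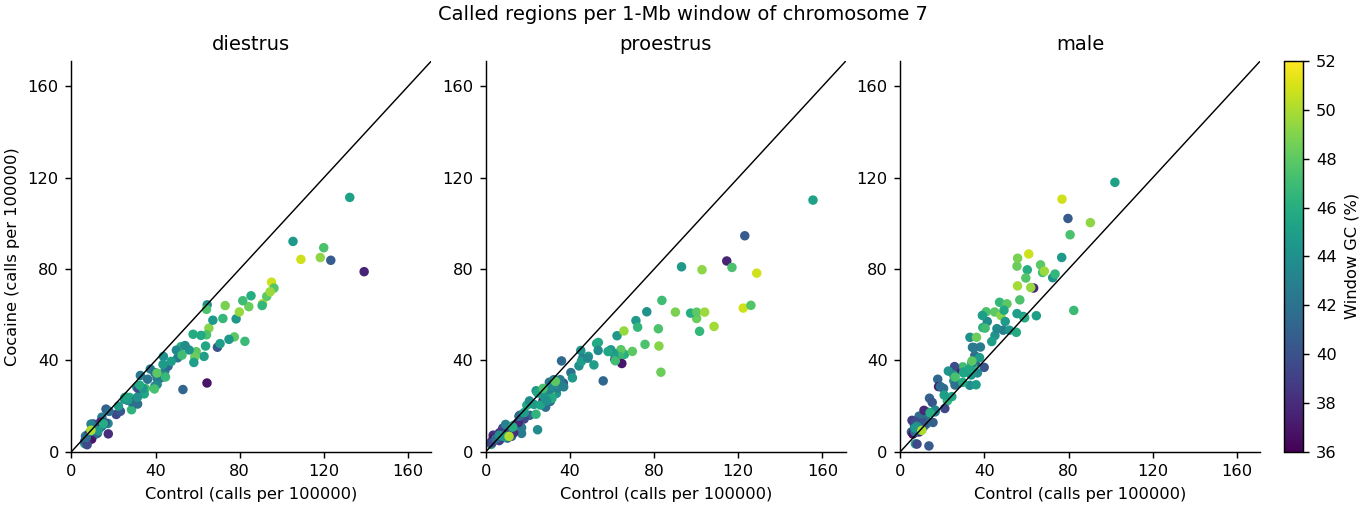
Called regions per 1-Mb window of chromosome 7 after cocaine (vertical axis) and in controls (horizontal axis), each the group mean per 100000 calls of a library, for the 117 windows with 10 or more kept regions; colour is the GC content of the window and the line marks equality. Points lie below the line for 109 windows in diestrus and 98 in proestrus, and for 20 in males.

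Within single genes the called regions can be followed library by library. The counted regions include those kept only because female controls called them, and the chromosome was selected on these same libraries. A gap between female controls and the other libraries is therefore partly built in. Genes of other chromosomes were not counted in this way. Dlg2 had 176, 220 and 247 called regions in diestrus controls and 161, 159 and 188 in proestrus controls. After cocaine it had 188, 111 and 75 in diestrus and 128, 149 and 131 in proestrus. Males had 142, 114 and 135 in controls and 94 and 81 after cocaine. Per 100000 calls, the 6 female controls (208 to 261) lay above all other libraries, and male controls (120 to 138) lay below male cocaine (150 and 152).

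Grm5, through which glutamate acts on a slower timescale in medium spiny neurons, showed a wider spread. It had 51, 65 and 69 called regions in diestrus controls and 57, 49 and 52 in proestrus controls, but 29, 20 and 28 in male controls. After cocaine it had 41, 19 and 14 in diestrus, 29, 31 and 34 in proestrus. The male cocaine libraries had 20 and 19. Every female control was above every other library, both in counts and per 100000 calls.

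Ube3a, which is expressed from the maternal copy in neurons, had 22, 23 and 29 called regions in diestrus controls and 22, 21 and 23 in proestrus controls. Male controls had 7, 5 and 4. After cocaine the counts were 20, 6 and 3 in diestrus, 10, 8 and 12 in proestrus. The male cocaine libraries had 7 and 5. The female controls did not overlap the other groups, and diestrus cocaine library 1 was the nearest to them. Prkcb had 78, 68 and 79 called regions in proestrus controls, 60, 72 and 68 in diestrus controls and 61, 48 and 60 in male controls. Per 100000 calls the proestrus controls (89.2 to 103) lay above all other libraries. Its count after cocaine was 53, 46 and 53 in proestrus and 75, 47 and 33 in diestrus, where library 1 was above all 3 diestrus controls. The male cocaine libraries had 35 and 29. In Nav2 the male controls (80, 59 and 82) overlapped the diestrus controls (58, 67 and 70), and male cocaine libraries had 32 and 27.

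Tenm4, which held the second largest number of regions among these genes, had 74, 94 and 88 called regions in diestrus controls and 93, 70 and 43 in diestrus cocaine libraries. It had 60, 65 and 70 in proestrus controls and 62, 67 and 52 after cocaine. Male controls had 80, 50 and 75 and the male cocaine libraries 48 and 37. Per 100000 calls its control and cocaine libraries overlapped in all 3 strata. Ntrk3 had 37, 43 and 47 called regions in diestrus controls and 52, 39 and 26 in diestrus cocaine libraries. It had 47, 42 and 48 in proestrus controls and 39, 37 and 36 after cocaine. Male controls had 56, 50 and 58, and both male cocaine libraries had 31. Per 100000 calls Ntrk3 overlapped between control and cocaine in diestrus and males, and in proestrus the cocaine libraries (42.3 to 46.9) lay under the controls (55.1 to 61.8).

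**Figure D5:**
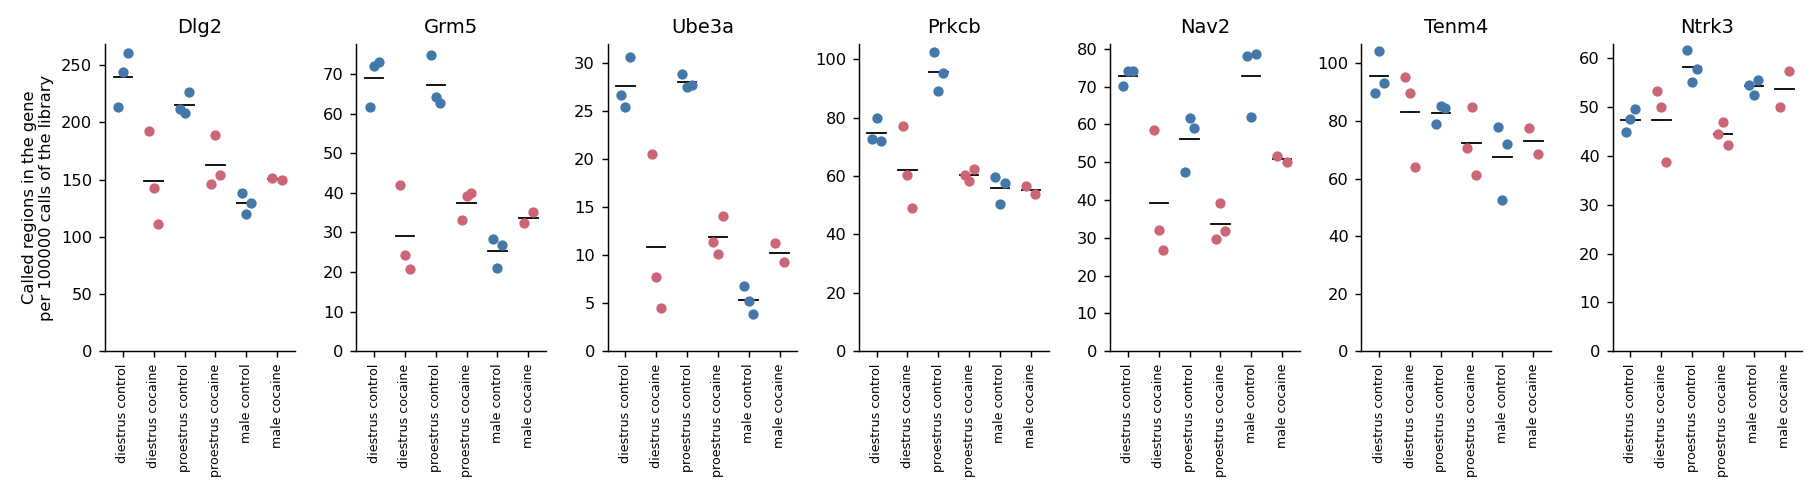
Called regions inside Dlg2, Grm5, Ube3a, Prkcb, Nav2, Tenm4 and Ntrk3 per 100000 calls of the library (vertical axes, each from 0) in the 6 groups (horizontal axes). Points are libraries, blue for control and red for cocaine, and black lines are group means; in Ube3a the female controls span 25.5 to 30.7 and the male controls 3.84 to 6.83.

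Across the lists, gene-body regions of synaptic scaffold, adhesion and vesicle genes numbered 793. Of these, 23 were lost and 0 gained in diestrus, 18 lost and 4 gained in proestrus, and 89 lost and 2 gained in males. Receptors and channels held 326, with 11 lost in diestrus, 19 in proestrus and 19 in males and only 2 gained, both in males. Grik5 alone had 6 of its 25 regions lost in proestrus. Kinases, phosphatases and pumps held 231, with 5, 12 and 17 lost and 4 gained, all in males, 3 of them in Pde3b, a cyclic nucleotide phosphodiesterase. Transcription factors and activity-induced genes held 127, with 2, 2 and 7 lost and none gained, and imprinted genes held 140, with 7, 4 and 6 lost and 2 gained, again in males. Beside these counts, the lost percentages of all kept regions were 1.26% in diestrus, 1.64% in proestrus and 16.8% in males, and those of chromosome 7 itself were 2.00%, 4.05% and 9.15%. The gained percentages were 1.16%, 2.45% and 1.66% of all kept regions and 0.0770%, 0.385% and 0.554% on chromosome 7. At these chromosome 7 percentages, few or no gains are to be met in any list of this size.

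Of the 6495 regions, 11 (0.169%) were called in all 9 control libraries and in at most 1 of the 8 cocaine libraries, where 0.0624% of all kept regions were. They lay at the promoters of Drd4 and Napa, in Sympk, Dll3, Nav2, Clpb, Hs3st2, Prkcb and Shank2, and between genes near Tjp1 and Slc5a11. They are named here after their values were seen, and Napa also has another promoter region, called in all 17 libraries. With regions rebuilt from stricter peaks, the count was 6 when a -log10 q of 5 was required and 2 with equal numbers of strongest peaks. These are mostly other regions: of the 11 named, only the one near Tjp1 was called in all 9 controls in either setting. With all peaks, the count was 18 without diestrus control library 1, 23 without diestrus cocaine library 1 and 23 without male control library 2. In 9 of the 11 the single cocaine library was diestrus cocaine library 1, in Hs3st2 it was proestrus cocaine library 1, and in Prkcb there was none. The reverse, a call in all 8 cocaine and at most 1 control library, was found for 0 regions of chromosome 7 and 0.0156% of all, and a call in all 8 cocaine and no control library for 0 regions and 0.00475% of all.

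The Drd4 promoter region (chr7:141291872-141292959) covered the start site and an exon of the dopamine D4 receptor gene. Its fold enrichment was 3.87, 3.91 and 5.50 in diestrus controls, 4.22, 4.87 and 3.32 in proestrus controls and 5.48, 3.03 and 3.73 in male controls. It was 5.10 in diestrus cocaine library 1, and no peak was called in the other 7 cocaine libraries. Restricted to peaks whose -log10 q reached 5, it was called in 8 of 9 controls and 1 of 8 cocaine libraries, and with equal peak numbers in 8 and 1. It was the only promoter among the genes of the receptor list to be called in every control and missed in most cocaine libraries.

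The Prkcb region (chr7:122556586-122557663) lay in an intron, 36258 bp from the nearest start site. It was called at 2.56 to 3.95 times background in all 9 controls and in no cocaine library, and was 1 of 11 such regions (0.00746%) in the series. It rested on weak peaks, and only 4 of 9 controls kept it when a -log10 q of 5 was required. The Shank2 region (chr7:144250469-144251708), in an intron of a postsynaptic scaffold gene, stood at 6.37, 6.20 and 5.93 in male controls and at 2.44 to 3.13 in female controls. The region near Tjp1 (chr7:65235490-65236277) was the firmest of the 11. It lay outside this tight-junction scaffold gene, 66028 bp from the nearest annotated start site of a Tjp1 transcript. All 9 controls and 1 cocaine library kept it both with a -log10 q of 5 required and at equal peak numbers, and its fold enrichment in controls was 2.94 to 7.27.

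Shared losses were counted as a share of each set. Diestrus and proestrus shared 8 lost regions, 6.15% of the diestrus and 3.04% of the proestrus set, and no gained region. Over all chromosomes the stages shared 50 lost regions (2.68% and 2.07%) and 298 gained regions, 17.4% of the diestrus and 8.24% of the proestrus set. Proestrus and male lost sets shared 25, 9.51% and 4.21% of each, where 273 were shared over all chromosomes (11.3% and 1.103%). Diestrus and male lost sets shared 15, 11.5% and 2.53% of each, where 266 were shared over all chromosomes (14.3% and 1.07%). A region in an intron of Osbpl5, 237 bp from a start site, was lost in diestrus and males. Its fold enrichment was 2.71, 2.68 and 2.80 in diestrus controls and 5.48, 2.89 and 3.18 in male controls. Osbpl5, an oxysterol-binding protein gene in the imprinted distal cluster, also has a promoter region called in all 17 libraries. An intron region of Gabrg3, the GABA-A receptor gamma-3 subunit, was lost in the same strata.

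Promoters made up 12 of the 130 regions lost in diestrus, 49 of the 263 lost in proestrus and 49 of the 594 lost in males. On the other autosomes they made up 6.03%, 15.5% and 5.55% of the lost regions. Those lost in diestrus included alternative starts inside Ube3a (2 regions), Chd2, a chromatin remodeller, Akt2, Grm5 and Cpeb1. Those lost in proestrus included Zfp607a, at 6.97, 4.06 and 3.32 times background in the controls and absent from the other 14 libraries. In males they included Slco2b1, an organic anion transporter, at 9.56, 6.06 and 7.90 in the male controls and in no other library. An internal start of Ntrk3 and the promoters of Alg8 and Ppfia1, a liprin of the presynapse, were also lost in males. The olfactory receptor region, an exon of Olfr576 480 bp from the start of Olfr577, was called in the 3 male controls (5.48, 3.99 and 4.61) and nowhere else.

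Gained promoters numbered 0 of 5 gained regions in diestrus, 1 of 25 in proestrus (Dcun1d3) and 0 of 36 in males. On the other autosomes promoters made up 6.10%, 4.38% and 2.75% of the gained regions. The 5 regions gained in diestrus lay near Asb7, Galnt18, Insc and Ppp2r2d and inside Mfge8, with folds under 4. Only the region near Asb7 was called in diestrus cocaine alone, the other 4 being called also in proestrus or male controls. Gained regions of proestrus included introns of Akap13, Agbl1 and Arnt2, and each of these 3 was called in at least 2 of 3 diestrus controls. Gained regions of males included introns of Gabrg3, Stim1 and Tcerg1l and a region 25802 bp from Vmn1r77. The Tcerg1l and Vmn1r77 regions were called in all 14 libraries other than the male controls, so only the male controls lacked them.

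Control groups also differed at single regions. In controls 216 regions (3.33%) were called in every male and no female library, against 7.2% of all kept regions, and 55 (0.847%) in every female and no male library, against 0.314%. These shares lie on opposite sides of the series-wide ones. Between the female stages 323 (4.97%) were called in every diestrus and no proestrus control, against 3.96%, and 58 (0.893%) in every proestrus and no diestrus control, against 0.792%. No single region was tested. The male-only count was 434 without male control library 2, and the female-only count was 110 without male control library 1 and 109 without diestrus control library 1. The diestrus-only count was 661 without diestrus control library 1. The proestrus-only count was 105 and 98 without diestrus control libraries 2 and 3, and 162, 152 and 121 without proestrus control libraries 1, 2 and 3.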

How the data were processed

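ATAC-seq was performed by the authors on NeuN-positive nuclei. Reads were aligned to mm10 with BWA and peaks were called per library with MACS2, according to the submitters' processing notes, which also name featureCounts and DESeq2; versions and options are not given in the sources used here. Each deposited peak carries a display score, a fold enrichment (a ratio to background), its p-value and q-value as −log10, and a summit offset. No read counts were analysed here, so the precision of a call is set by depth, taken from the deposited fold steps.

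Peaks of chromosomes 1 to 19 and X were merged at 1 bp of overlap, and regions called in 2 or more libraries of 1 group were kept, with Python 3.11.15 code checked on simulated peaks. The chromosome, its members and the gene lists were chosen with earlier results of these data known. Genes were taken from GENCODE vM21 on GRCm38, the build of the files: promoter within 1 kb of a protein-coding start site, then gene body, then intergenic. Sequence came from the GRCm38 reference. Shares of peaks were compared by two-sided exact permutation tests over libraries with Benjamini-Hochberg adjustment over 4 comparisons. Intervals and limits on zero counts (3 counts) cover counting error only.

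Named items were the listed genes on chromosome 7, genes of the empty and the 3 densest windows, and, per stratum and direction, the 5 regions of highest fold in any library and up to 10 promoters. The 10 regions of highest fold gained or lost in 2 or more strata and the 5 regions of highest median fold among those called in all 17 libraries were also named. Alternatives were peaks of −log10 q of at least 5, equal numbers of strongest peaks, 50 bp of overlap, covered base pairs, a replicate block and leaving out each library. Excluded regions of the genome were not masked.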

Additional observations from a re-analysis of the deposited data

How the results depend on the processing

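Joining peaks at 50 bp of overlap moved no count by more than 1.5 times. None of the 4 comparisons of peak shares could have passed 0.05 after adjustment, the smallest adjusted p they allow being 0.0952 over all libraries, so their staying above it says nothing about stability. Restricted to peaks whose −log10 q reached 5, gained and lost regions were 0 and 53 in diestrus (gained share 0%), 13 and 124 in proestrus, and 21 and 381 in males, with 200 diestrus-only and 14 female-only control regions and 6 regions in every control and at most 1 cocaine library. With equal numbers of strongest peaks, 67 regions were lost in diestrus, 16 gained and 146 lost in proestrus, and 164 gained and 147 lost in males, where the gained share became 52.7%. That setting left 90 male-only and 161 diestrus-only control regions and 2 regions in every control and at most 1 cocaine library. Without the rule of 2 libraries, 12516 merged regions would be counted. By 1 library left out, gained and lost counts ranged from 5 to 32 and 137 to 845 in diestrus, 34 to 62 and 311 to 515 in proestrus, and 43 to 101 and 659 to 1226 in males. Gained shares ranged from 1.05% to 18.9% in diestrus, 6.19% to 16.6% in proestrus and 3.39% to 12.97% in males. Control sets ranged from 223 to 434 (male-only), 61 to 110 (female-only), 361 to 661 (diestrus-only) and 66 to 162 (proestrus-only), and regions in every control and at most 1 cocaine library from 11 to 23. Differences in peak share, in percentage points, ranged from -1.56 to -0.982 (male minus female controls), -0.0408 to 0.386 (diestrus minus proestrus controls), 0.456 to 0.860 (male minus female after cocaine) and -0.178 to 0.833 (diestrus minus proestrus after cocaine). The change in mean peak share after cocaine ranged from -34.4% to -15.2% in diestrus, -37.3% to -24.5% in proestrus and 4.99% to 21.8% in males. With 1 male cocaine library left, every placement of a single library was enumerated. The set in every control and at most 1 cocaine library, with its alternatives, and the changes in mean share without single libraries were chosen after seeing the data.

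With labels permuted within replicate numbers (replicate block), male and female controls differed by -1.28 percentage points (exact permutation p = 0.0741, the smallest possible) and diestrus and proestrus controls by 0.152 (exact permutation p = 0.5). After cocaine the blocked differences were 0.258 and 0.604 (exact permutation p = 1 for both). Whether libraries with the same number share more than that number is not known. In 1 of 36 pairs of such libraries the deviations in chromosome 7 calls correlated above 0.1, over a range of -0.138 to 0.148. In no pair of groups with 3 shared numbers did every library correlate best with its own number, the most being 2 of 3 diestrus cocaine libraries against male controls. No call was possible with or without the block.

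Calls rest on weak peaks near the threshold at a modest depth, and absence of a call is not absence of accessibility.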
